A study of Mus musculus with 30 samples.

Results

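Sleeping Beauty (SB) vector insertions recurred at the same genomic position in 3 or more of 13 livers at 681 of 929804 SB positions, which held 2239 of 949436 SB site records (0.236%). A position was a chromosome and a start coordinate, with the strand ignored, and it was counted once for each liver whose deposited table listed it. The positions were chosen by that number of livers, so recurrence itself is a description here and not a finding. The recurrent positions were split by strand. At 297 of them every record lay on 1 strand, 121 on plus and 176 on minus, and at 384 the records lay on both strands. Of the other SB positions, 17099 were listed in 2 livers and 912024 in 1 liver.

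The livers came from Fah knockout mice, labelled TT1 mice, that had been treated in vivo with a therapeutic transposon vector. The 13 SB livers carry the SB vector system and the 17 PB livers the piggyBac (PB) vector system, and both groups share the Fah knockout and the gene therapy. Insertion sites were read by streptavidin-based enrichment sequencing (SBE-seq) of whole-liver DNA, in which fragments that carry a transposon end are amplified and sequenced. The labels give no age, dose, length of treatment, untreated liver, or cell type within the liver.

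SB and PB are DNA transposons that a transposase cuts out of a plasmid and pastes into the genome. SB inserts at the dinucleotide TA and duplicates it, and PB inserts at the tetranucleotide TTAA. Fah encodes fumarylacetoacetate hydrolase, which completes the breakdown of tyrosine, and hepatocytes that regain it have a growth advantage in the knockout liver. Each hepatocyte that took up the vector can carry insertions in either orientation relative to the chromosome, so a vector inserted repeatedly at 1 target can be recorded on the plus or the minus strand.

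Each deposited record holds a position, a strand and a whole number of at least 3, called support below. The labels and files do not say what it counts. The SB livers held 4893 to 120220 sites, with median support per site of 34 to 87. SB liver 13 stood apart with 4893 sites, while livers 1 to 12 held at least 34929. Livers 1 to 12 had 17.5 to 30.9 records at recurrent positions per 10000 sites, and liver 13 had 51.1, from 25 records. Coordinates are those of build GRCm39 and are counted from 1. Genes, exons, repeats and the bases at the positions are not analysed here, because no sequence or annotation of this build was used.

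The number of positions fell steeply with the number of livers, and the strand split changed with it. At the threshold, 574 positions were listed in exactly 3 livers, of which 228 (39.7%) were on 1 strand, while just outside it 8904 of 17099 positions in 2 livers (52.1%) were on 1 strand. The median over positions of their median support was 48 for 3 livers and 50 for 2 livers. Above 3 livers the 1-strand positions became the larger class, with 40 on 1 strand and 30 on both strands in 4 livers, and 13 and 7 in 5 livers. Of 17 positions in 6 or more livers, 16 were on 1 strand. A position with more records has more chances to show both strands. The lower 1-strand share at 3 than at 2 livers therefore does not show a weaker strand preference. Above 3 livers the 1-strand share was nonetheless higher than at 3 livers. Both strands occurred within 1 liver at 17 of the 384 both-strand positions. Recurrence chose the positions, and no test was made of these counts.

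**Figure D1:**
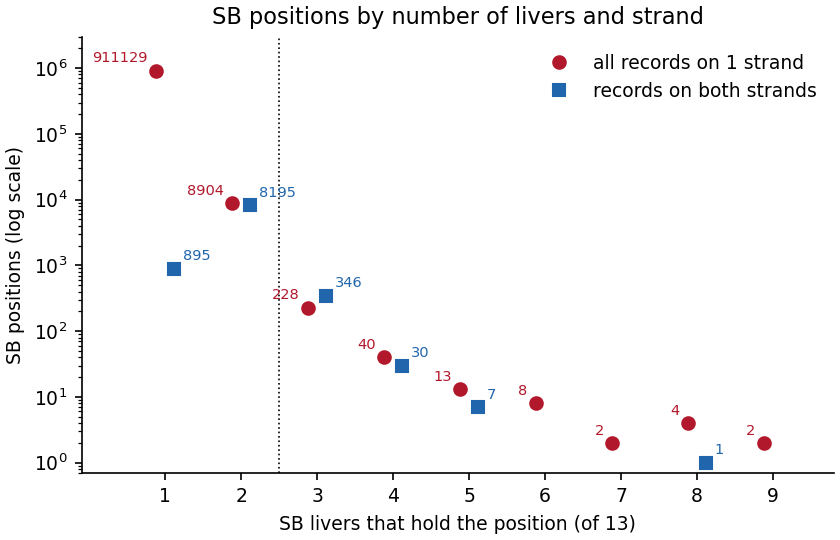
Number of SB positions (log scale) by the number of SB livers that list them, for positions with all records on 1 strand (red circles) and on both strands (blue squares). The dotted line marks the threshold of 3 livers, and right of it 1-strand positions number 228, 40, 13, 8, 2, 4 and 2 in 3 to 9 livers.

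The positions listed in most livers were almost all on 1 strand, and their support differed from position to position. The position chr10:5537492-5537493 was on the minus strand in 9 livers, with support of 21 at the lowest, 39 at the median and 134 at the highest. The position chr17:83296315-83296316 was on the plus strand in 9 livers, with support of 5 at the lowest, 8 at the median and 23 at the highest. The 2 ranges overlap only in the span between 21 and 23, so equal recurrence came with different support. Among their own livers' sites, the median record of the chromosome 10 position stood at the 38.5th percentile of support and that of the chromosome 17 position at the 8.58th.

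A further 5 positions were listed in 8 livers. At chr3:80986951-80986952 support was 3, 4, 4, 5, 17, 53, 68 and 84, all on the plus strand. At chr3:83970636-83970637, also plus, support was 8, 8, 13, 78, 155, 213, 257 and 350. Both positions held low records in some livers beside records many times higher in others. At chr10:55091283-55091284, on the minus strand, support was 4, 4, 5, 8, 13, 17, 60 and 67. At chr10:60315460-60315461, on the minus strand, it was 3, 4, 6, 7, 13, 25, 94 and 152. The exception in strand was chr11:3091320-3091321, with 9 records in 8 livers, 7 on plus and 2 on minus, and support of 3 at the lowest, 51 at the median and 119 at the highest.

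The 2 positions listed in 7 livers were both on the minus strand. At chr10:60315456-60315457 support was 4, 9, 10, 14, 52, 80 and 195. At chrX:107420354-107420355 it was 3, 4, 4, 5, 6, 6 and 7, so that no record there reached 10. Recurrence in 3 or more livers at low support throughout was found mainly on 1 strand. All records had support of 10 or less at 26 of 297 positions on 1 strand and at 2 of 384 on both strands.

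Support was lower at the recurrent positions than at the other sites of the same liver, and lower at 1-strand than at both-strand positions, and neither difference held without records of support under 10. Mean log2 support per liver was 5.14 ± 0.37 at recurrent positions and 5.42 ± 0.36 at all other SB sites (SD, n = 13 livers each). The difference within livers averaged -0.29 ± 0.24 and was negative in 12 of 13 livers, with liver 11 the exception at 0.071 (exact sign-flip permutation test, two-sided, p = 0.0007, adjusted p = 0.00073 over 6 tests by the Benjamini-Hochberg method). With records of support under 10 left out, the difference turned to 0.046 and no longer passed (p = 0.11, permutation test). It was -0.18 with SB positions within 10 bp merged, -0.13 without positions that had another SB position so close, and -0.92 for positions in 4 or more livers.

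Within the recurrent positions, 1-strand positions averaged 4.66 ± 0.49 log2 support per liver and both-strand positions 5.54 ± 0.51 (SD, n = 13 livers each). The difference of -0.88 ± 0.60 corresponds to a ratio of 0.544, was negative in 13 of 13 livers and ran from -2.29 in liver 4 to -0.09 in liver 11 (exact sign-flip permutation test, two-sided, p = 0.0002, the smallest that 13 livers can give, adjusted p = 0.00029). With records of support under 10 left out, the difference was -0.13 and did not pass (permutation test, p = 0.28). It was -0.43 after merging and -0.54 without positions that had a close neighbour. The same positions enter in several livers, so these p-values describe the spread between livers and not between positions.

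The classes differed in their records at the edge of detection. Support was 3 to 5 in 197 of 1021 records of 1-strand positions (19.3%), in 47 of 1218 records of both-strand positions (3.86%) and in 4.84% of records of single-liver positions. By liver, this share ran from 0% to 30.7% at 1-strand positions and from 0% to 10.6% at both-strand positions. It was higher at 1-strand positions in 12 of 13 livers, and liver 13, with 14 and 11 records, was the exception. At the upper end the classes were close, and 11.6% of 1-strand records and 11.5% of both-strand records exceeded the 90th percentile of support in their own liver.

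**Figure D2:**
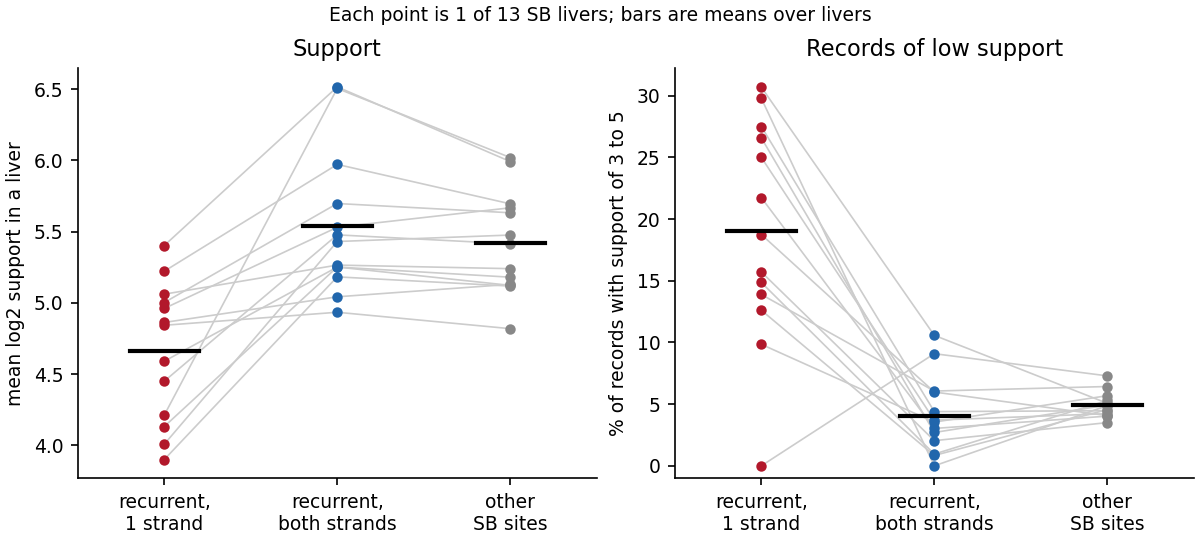
Left, mean log2 support in each of 13 SB livers at recurrent positions on 1 strand, at recurrent positions on both strands and at all other SB sites; right, the percentage of those records with support of 3 to 5. Grey lines join the values of 1 liver and black bars are means over livers. Every liver has a lower mean at 1-strand than at both-strand positions, and the share of low support reaches 30.7% at 1-strand positions and 10.6% at both-strand positions.

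Support varied widely between livers in both classes. The highest record was at least 10 times the lowest at 79 of 297 positions on 1 strand (26.6%) and at 65 of 384 on both strands (16.9%). In positions with 4 or more livers these numbers were 39 of 69 (56.5%) and 15 of 38 (39.5%), and the median ratio of highest to lowest was 14.1 and 6.83. In positions with exactly 3 livers, where both classes have the same number of livers, they were 40 of 228 (17.5%) and 50 of 346 (14.5%), with median ratios of 3.40 and 3.14. Every record lay below the median of its own liver at 79 positions on 1 strand (26.6%) and 40 on both strands (10.4%). These are descriptions of the positions, which share livers, and were not tested.

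Recurrent positions of high support existed in both classes. The highest median support on 1 strand was 138 at chr17:56898270-56898271, from records of 46, 138 and 152. It was followed by 136 at chr9:94808604-94808605, from 8, 136 and 183, and by 128.5 at chr8:7992673-7992674, from 8, 89, 168 and 249. Next came chr10:105840578-105840579 at 125, from 6, 8, 125, 185 and 305, and chr10:121336262-121336263 at 122, from 36, 122 and 152. A low record stood beside high ones at 3 of these 5 positions, where the lowest was 6 or 8. On both strands the highest median was 130 at chr13:120075858-120075859, from 23, 130 and 148, and the next 126 at chr1:180551048-180551049, from 44, 126 and 151. The remaining 3 were chr11:21147522-21147523 at 120, and chr8:85729977-85729978 and chr15:89104565-89104566 at 115 each. No record at these 5 both-strand positions was below 23.

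Recurrent positions on 1 strand tended to have another SB position beside them. Another SB position, in any liver, lay within 10 bp of 114 of 297 positions on 1 strand (38.4%) and of 69 of 384 on both strands (18.0%). The share was 10.7% of positions in 2 livers and 6.05% of positions in 1 liver. Without the window of chromosome 11 from 3 to 4 Mb, described below, it was 107 of 285 on 1 strand (37.5%). On both strands it fell to 39 of 337 (11.6%), near the 10.6% of positions in 2 livers. The distances were uneven. The nearest other position was 2 bp away for 17.2% of 1-strand, 7.03% of both-strand and 2.96% of single-liver positions, and 4 bp away for 15.2%, 7.03% and 1.77% in the same order. At 3 bp the shares were 1.35%, 0% and 0.0673%. At 1 bp, a distance at which 2 separate TA dinucleotides cannot lie, there were 4 positions on 1 strand, none of 384 on both strands and 1232 in a single liver (0.135%). These neighbours come from the same SB livers that chose the positions, so no test was made.

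**Figure D3:**
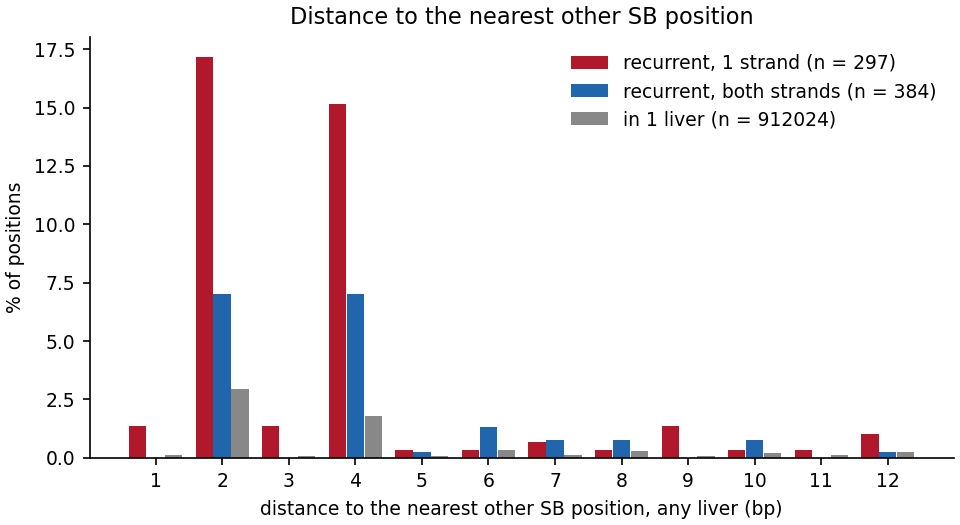
Percentage of SB positions by distance in bp to the nearest other SB position of any liver, for recurrent positions on 1 strand (red), recurrent positions on both strands (blue) and positions in 1 liver (grey). Both recurrent classes stand highest at 2 bp and 4 bp, where 1-strand positions reach 17.2% and 15.2%. Positions of the chromosome 11 window are included.

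Chained at gaps of up to 10 bp, 69 recurrent positions formed 23 runs, and 56 of the 69 were on 1 strand. All records of 15 runs lay on 1 strand. Of the 46 gaps inside runs, 18 measured 2 bp, 22 measured 4 bp, 4 measured 8 bp, 1 measured 6 bp and 1 measured 9 bp. The bases between the positions were not read here. Each position of a run was counted separately in the numbers above, and whether a run holds 1 target or several was not tested.

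The 4 longest runs held 28 recurrent positions, all on 1 strand. The run at chr10:60315456-60315485 had 8 recurrent positions exactly 4 bp apart and 41 records, all on the minus strand, in 9 livers. Over all SB records within 60 bp of it, median support was 64.5, 57, 61 and 47 in livers 5, 7, 11 and 9, and 13 or less in livers 3, 4, 6, 8 and 10. Liver 7 had records at all 8 positions. The run at chr10:105840578-105840615 also had 8 recurrent positions, with 5 gaps of 4 bp and 2 of 8 bp, and 39 records in its span, all on the minus strand, in 11 livers. Median support within 60 bp of it was 246 in liver 7, 106.5 in liver 2, 84.5 in liver 11 and 48 in liver 9, and at most 11 in the other 7 livers. Livers 7, 9 and 11 thus stood high in both runs, while liver 5 was high in the first and had a median of 6.5 in the second.

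The run at chr14:29904159-29904172 had 7 recurrent positions at every second base, with 24 records on the plus strand in 5 livers. The highest support within 60 bp of it was 51, 147 and 127 in livers 7, 9 and 11, and 8 and 6 in livers 8 and 10. The run at chr15:74957980-74957999 differed from the other 3. Its span of 5 recurrent positions held 23 records, 22 of them on the minus strand, in 11 livers, with support of 19 at the lowest, 58 at the median and 173 at the highest. No liver had records at more than 4 positions in it. No PB liver had a site within 10 bp of a recurrent position of these 4 runs.

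**Figure D4:**
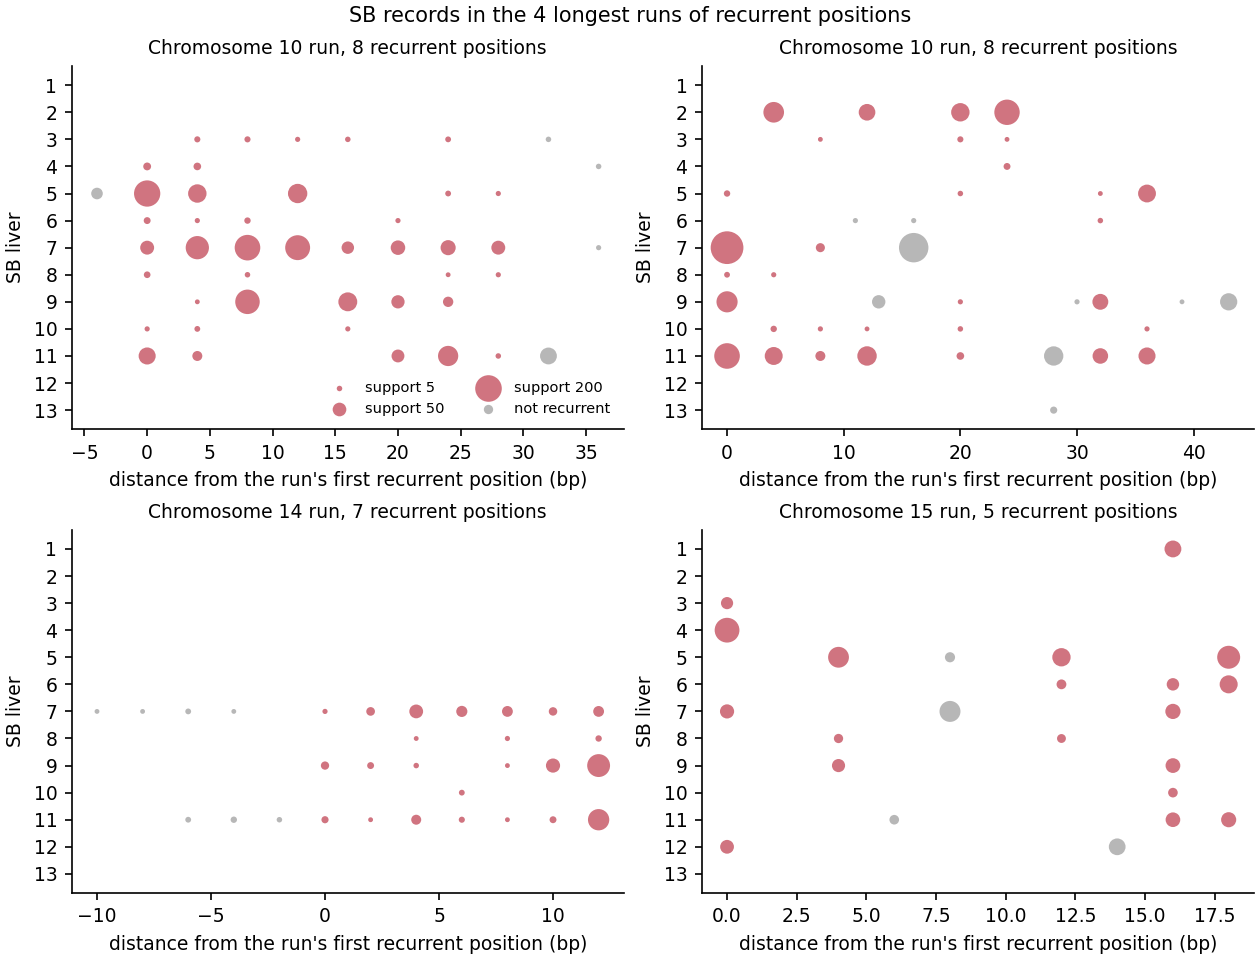
SB records in the 4 longest runs, by distance in bp from the run's first recurrent position and by SB liver; the area of a circle grows with support, and grey circles are positions listed in fewer than 3 livers. In the chromosome 10 and 14 runs 1 liver holds several evenly spaced positions, up to 8 recurrent ones in liver 7, and the large circles stand in livers 2, 5, 7, 9 and 11.

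PB sites, which played no part in choosing the positions, lay close to 23 of the 681 recurrent SB positions (3.38%) in at least 1 of 17 PB livers, taking a distance of at most 10 bp between starts. The share among all SB positions was 1.23%. By class it was 18 of 297 on 1 strand (6.06%) and 5 of 384 on both strands (1.30%). The both-strand share was near that of all positions and that of positions in 2 livers (1.45%). Within 2 bp there were 12 positions on 1 strand (4.04%) and none of 384 on both strands, against 0.293% of all SB positions. At that share few of 384 would be counted, so the absence says little about the both-strand class.

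Per PB liver, 0.622% ± 0.387 of recurrent positions and 0.100% ± 0.049 of single-liver positions had a PB site within 10 bp (SD, n = 17 livers each). The difference of 0.522 percentage points was positive in 17 of 17 livers (sign-flip permutation test, two-sided, 100000 resamples, p = 4e-05, adjusted p = 8e-05). Between the strand classes the shares were 1.23% ± 0.86 on 1 strand and 0.153% ± 0.161 on both strands (SD, n = 17 livers each). That difference of 1.07 percentage points was positive in 15 of 17 livers and -0.26 in livers 1 and 14 (sign-flip permutation test, two-sided, p = 0.0002, adjusted p = 0.00029). The p-values cover the spread between PB livers over a fixed set of positions, and a share of 1.23% is under 4 positions of 297 per liver. Without positions that had another SB position within 10 bp, the differences shrank to 0.206 (permutation test, p = 4e-05) and 0.378 percentage points (permutation test, p = 0.022). After merging the first was 0.316, and for positions in 4 or more livers the pair came to 1.27 and 1.65.

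A few positions gave most of these PB hits. Of the 23 positions, 12 had a PB site nearby in 1 PB liver only and 8 in 6 or more. At chr16:48299294-48299295, with SB support of 7, 64, 75 and 99, and at its neighbour chr16:48299296-48299297, with 16, 58 and 60, 8 PB livers had a site. PB starts near the first lay at offsets of -5, -4, -3, -2, -1, 0 and 4 bp, all on the minus strand like the SB records, with PB support of 3 to 88. Separate TTAA sites cannot start at consecutive bases, so not all of these starts can be TTAA sites. At chr9:46706208-46706209, with SB support of 39, 78, 100, 144 and 145 on the minus strand, 7 PB livers had sites on the minus strand at offsets of 2, 3, 4, 5 and 7 bp, with PB support of 3 to 113. At chr2:45728891-45728892, with SB support of 5, 33 and 52 on the minus strand, 7 PB livers had minus-strand sites at offsets of -7, -6, -5, -4, -3 and 1 bp. The starts of PB sites were thus scattered by single bases at these 4 positions, and SB and PB records shared their strand. The 2 chromosome 16 positions lie 2 bp apart, and the same PB records were counted at both.

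A further 4 positions had PB sites within 10 bp in 6 PB livers each, and they did not share 1 pattern. At chr9:94755173-94755174, with SB support of 16, 56 and 105 on plus, PB sites lay at 6 starts, all on plus, with PB support of 3 to 108. At chrX:74692275-74692276, with SB support of 48, 54 and 126 on minus, PB sites lay at 2 starts, all on minus, with PB support of 32 to 182. At chr15:74957504-74957505, with SB support of 41, 61 and 69 on minus, all PB records started at 1 base, 3 bp after it, and 1 of the 7 was on plus. The fourth was the single both-strand position among the 8. At chr13:42203557-42203558 SB support was 25 and 83 on plus and 47 on minus. PB sites there all started at 1 base, 6 bp before it, with PB support of 24 and 29 on plus and 17, 36, 63 and 83 on minus. At the recurrent positions on chromosome X at 107420354 and 107420358, where SB support never passed 7, PB sites had support of 3 and 6.

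Recurrent positions were unevenly placed on the chromosomes, and 1 short span held many of them. Chromosome 11 had 113 recurrent positions, 20.9 per 10000 SB positions, against 4.47 (X) to 10.7 (17) on the other autosomes and X. Chromosome Y had 39.8 per 10000, from only 2 recurrent positions among 503. Of the 113 on chromosome 11, 59 (8.66% of all recurrent positions) lay in a span of 96.5 kb at chr11:3051536-3148049. In it 12 were on 1 strand and 47 on both strands. Of the 519 SB positions in that span 11.4% were recurrent, against 0.0669% elsewhere. It held 7 of the 8 both-strand positions listed in 5 or more livers. Median support in it was 51.5, and 2 of its 59 positions had a PB site within 10 bp. The densest surroundings belonged to chr11:3101045-3101046, chr11:3125865-3125866 and chr11:3126989-3126990, with 795, 793 and 792 SB sites within 50 kb and support of 4, 80 and 85, of 4, 60 and 63, and of 16, 17 and 31.

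Every liver of both groups had sites in this span. The span is bounded by recurrent SB positions, so its SB density follows in part from how it was chosen. PB sites played no part in that choice. For comparison, a mean of 0.604 of every 10000 PB sites lay within 50 kb of single-liver SB positions. SB livers had 8.35 ± 1.30 of every 10000 sites there (SD, n = 13), 6.65 at the lowest and 10.2 at the highest, and PB livers had 5.15 ± 0.81 (SD, n = 17), 3.46 at the lowest and 6.72 at the highest. How reads that match several places were treated is not stated in the labels, and repeats in this span are not analysed here.

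**Figure D5:**
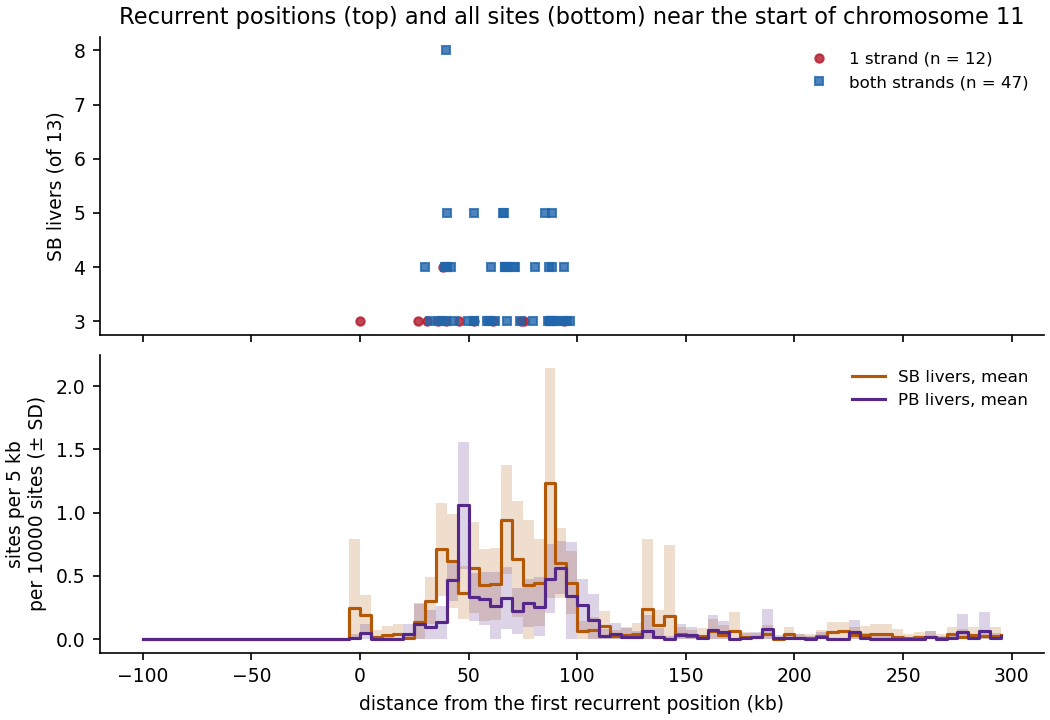
The start of the listed sites of chromosome 11, by distance in kb from the first recurrent position. Top, the 12 recurrent positions on 1 strand (red circles) and 47 on both strands (blue squares) by number of SB livers; bottom, sites per 5 kb bin per 10000 sites as the mean over 13 SB livers (orange) and 17 PB livers (purple), with shading for the SD. Site density of both vectors is raised over the stretch that holds the recurrent positions, which were themselves chosen from the SB sites.

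Away from this span the recurrent positions were spread thinly. Windows of 1 Mb with a single recurrent position numbered 353, and 86 had 2. After the chromosome 11 window, with 59, the next held 9 and 8 on chromosome 10, 7 on chromosome 14 and 7 on chromosome 15, which are the windows of the 4 longest runs. The first megabase with listed sites on each chromosome held 69 recurrent positions (10.1%) against 0.972% of all SB positions, and without the chromosome 11 window 10 (1.61%) against 0.857%. Those 10 were 9 of 285 positions on 1 strand (3.16%) and 1 of 337 on both strands (0.297%). The last 2 Mb held 18 (2.64%) against 1.89% of all SB positions. By class these were 5 on 1 strand (1.68%) and 13 on both strands (3.39%). The 2 strand classes thus went opposite ways at each end, and this was not tested.

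The surroundings of the 2 strand classes differed. The median number of SB sites within 50 kb, summed over 13 livers, was 52 at 1-strand positions, 71 at both-strand positions, 61 at positions in 2 livers and 49 at positions in 1 liver. The PB livers gave an independent count. PB sites within 50 kb, leaving out the nearest 10 bp, numbered 1.16 ± 0.09 per 10000 PB sites of a liver at recurrent positions and 0.604 ± 0.004 at single-liver positions (SD, n = 17 livers each). The difference of 0.560 was positive in 17 of 17 livers (sign-flip permutation test, two-sided, p = 4e-05, adjusted p = 8e-05), and without the chromosome 11 window it was 0.186. For positions in 4 or more livers, with the chromosome 11 window included, it was 0.851.

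Both-strand positions lay in regions denser in PB sites than 1-strand positions did. The mean number of PB sites within 50 kb per 10000 was 0.756 ± 0.050 at 1-strand and 1.48 ± 0.11 at both-strand positions (SD, n = 17 livers each). The difference of -0.72 was negative in 17 of 17 livers (sign-flip permutation test, two-sided, p = 4e-05, adjusted p = 8e-05). Without the chromosome 11 window it was -0.36, with SB positions within 10 bp merged -0.22, without positions that had a close neighbour -0.31, and at positions with exactly 3 records -0.37. For positions in 4 or more livers, with the chromosome 11 window included, it was -3.08. That value rests on 38 both-strand positions and was not computed without the window. The chromosome 11 span held 7 of the 8 both-strand positions in 5 or more livers. Medians over positions, summed over PB livers, were 52 at 1-strand, 116.5 at both-strand, 82 at 2-liver and 53 at single-liver positions. The 1-strand and single-liver medians were thus close, but without the chromosome 11 window they were 46 and 53. By the mean per liver with the window included, 1-strand positions stood higher than single-liver positions, at 0.756 against 0.604 per 10000. The window holds 12 of the 1-strand positions. Without it, recurrent minus single-liver positions came to 0.186, and 1-strand minus both-strand positions to -0.36. With 285 positions on 1 strand and 337 on both strands, these differences place the 1-strand mean close to the single-liver mean. The remaining excess of recurrent positions then lay in the both-strand class. The neighbourhoods of nearby positions overlap, so these are not independent positions.

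On the sex chromosomes recurrence was almost all on 1 strand. Of 14 recurrent positions on chromosome X, 12 were on 1 strand. Chromosome Y had 503 SB positions and 2 recurrent ones, both on the minus strand. At chrY:4157218-4157219 support was 3, 31, 25, 48 and 63 in livers 2, 5, 8, 9 and 10, and at chrY:4156360-4156361 it was 3, 53 and 6 in livers 2, 6 and 7. These livers differed in their Y sites: livers 1 to 6 had 41 to 102 each (9.52 to 12.6 per 10000 sites), livers 7 to 12 had 7 to 16 (0.851 to 1.80 per 10000), and liver 13 had 4 (8.17 per 10000). The livers differed in X sites too, which were 2.26% to 2.59% of all sites in livers 1 to 6. They were 3.80% to 4.23% in livers 7 to 12 and 4.48% in liver 13. The Y positions were thus listed also in livers with few Y sites for their size, and the cause was not tested.

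Sharing was spread over pairs of livers without being even. In the 66 pairs among livers 1 to 12, 6 to 53 recurrent positions on 1 strand were shared (median 18.5), and 2 to 35 on both strands (median 20). The highest 1-strand numbers were 53 for livers 9 and 11, 52 for livers 7 and 11, and 41 for livers 7 and 9, where both-strand positions numbered 23, 32 and 24. These counts grow with the number of sites, and each position of a run is counted separately in them. Livers 7, 9 and 11 each had records at several positions of the long chromosome 10 and 14 runs. The 1-strand numbers were also divided by the product of both livers' site numbers, as positions per 1000000000 pairs of sites. Among livers 1 to 12 other pairs then came first, with 6.69 for livers 2 and 8, 6.55 for livers 2 and 4 and 6.37 for livers 2 and 7. The pairs above had 5.10, 5.02 and 5.50. Pairs with liver 13 ran from 0 for livers 4 and 13 to 18.7 for livers 2 and 13, which shared only 4 positions. The share of records at recurrent positions that belonged to 1-strand positions ran from 35.4% in liver 1 to 56.0% in liver 13.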

How the data were processed

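Insertion sites in liver DNA of 13 SB and 17 PB livers were analysed from the deposited table of each liver. Per the labels' protocols, DNA was fragmented, ligated to a linker and amplified in nested PCRs. The submitters' processing notes list the build GRCm39 and the tools BWA and cutadapt, with no version. The authors deposited a whole number per site, here called support, whose other meaning is not stated. Its minimum was 3. Depth beyond it is unknown.

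The recurrent positions, strand classes and tests were chosen with earlier results of these data known. Named positions are those in 7 or more livers, the 5 of highest median support per class, the 8 with 6 or more PB livers within 10 bp (the rule took 5, but 4 tied for the last place and the other 3 were added after their values were seen), the closest pairs with most livers and the 3 with most SB sites within 50 kb. Values were computed in Python 3.11.15 with scipy 1.17.1, pandas 2.3.3 and numpy 2.4.6. Each liver was its own control in sign-flip permutation tests (exact for 13 livers, 100000 resamples for 17), adjusted over 6 tests. The calculation recovered planted values on simulated data. The labels do not say whether livers came from separate batches. Merged tables were not used.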

Additional observations from a re-analysis of the deposited data

How the results depend on the processing

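With only records of support of at least 10, 498 positions recurred, 185 of them on 1 strand; the support difference between recurrent and other sites turned to 0.046 and that between 1-strand and both-strand positions came to -0.13, neither past the permutation test (p = 0.11 and 0.28). The cause was not tested. Merging SB positions within 10 bp gave 2062 recurrent positions, 679 on 1 strand, in up to 11 livers. A threshold of 4 livers left 107, 69 of them on 1 strand. Without positions that had another SB position within 10 bp, an alternative chosen after seeing the data like that without the chromosome 11 window, 183 of 498 were on 1 strand. The other alternatives kept the direction and the call of each of the 6 tests.

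Leaving out 1 SB liver at a time gave 468 to 667 recurrent positions, 208 to 290 on 1 strand. The support difference ran from -0.40 to -0.26 for recurrent against other sites and from -1.06 to -0.77 for 1-strand against both-strand positions. The difference in PB sites within 10 bp ran from 0.434 to 0.671 and from 0.843 to 1.31 percentage points. That in PB sites within 50 kb ran from 0.466 to 0.624 and from -0.85 to -0.71 per 10000. No call changed. No paired analysis was possible because no result compares PB with SB livers, so the liver numbers that the groups share give no block to fit. Each test already sets values of the same liver against each other. Sites with support below 3 are not listed, so absence from a liver's table does not show that a position was not hit there.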
